A study of Mus musculus with 12 samples.

Results

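The genes described here were 9 core enzymes of the tricarboxylic acid (TCA) cycle and of the pyruvate dehydrogenase complex: Cs, Idh2, Idh3a, Ogdh, Sucla2, Fh1, Mdh2, Pdha1 and Dlat. They were chosen by name, by a rule that does not use their values, but with earlier results of these data known. They are 9 of the 16821 genes listed for the liver samples. All 9 were above the filter on low values, so every one of them was tested. The question was whether their transcript levels differed between the livers of trained and untrained mice.

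Liver RNA was sequenced from 12 male C57BL/6J mice, with 1 library per mouse. The 6 control (Con) mice stayed sedentary. The 6 exercised (Exe) mice were trained by moderate treadmill running over 6 weeks, 60 min a day on 5 days a week. The mice were bought at 8 weeks of age and had 1 week of adaptation, and the livers of both groups were perfused with saline before they were collected. No genotype, diet or drug distinguished the groups in the labels. The values are FPKM, read fragments scaled by transcript length and by the size of the library, which puts the levels of genes on a common scale. They summed to between 735200 and 820107 in a mouse, and the number of reads behind them is unknown. Whole liver was measured, so fewer cells of a type and less RNA per cell cannot be told apart.

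The TCA cycle oxidises acetyl-CoA in the mitochondrial matrix and passes the electrons to the respiratory chain. The pyruvate dehydrogenase complex feeds it by turning pyruvate into acetyl-CoA. Kinases switch that complex off by phosphorylating its E1 subunit, and phosphatases switch it on by removing the phosphate. In liver the cycle also supplies citrate for lipid synthesis and oxaloacetate for gluconeogenesis, and its enzymes are encoded by nuclear genes.

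The promoters of 4 of the genes are shown because Idh2 varied with Sucla2 and with Pdha1 over the mice before quantile normalization, whereas Fh1 did not follow them. Each sequence is the 250 bases before the transcription start in RefSeq on GRCm38.p6, 5′ to 3′ on the strand of the gene. Capitals mark GC boxes (GGGCGG or its reverse complement CCGCCC, bound by Sp1) and, in Sucla2, a match to the sequence recognised by nuclear respiratory factor 1 (NRF1), searched as GCGC and TGCGC with any 1 base between them.
Idh2, gene ID 269951, chr7:80115351-80115600, minus strand: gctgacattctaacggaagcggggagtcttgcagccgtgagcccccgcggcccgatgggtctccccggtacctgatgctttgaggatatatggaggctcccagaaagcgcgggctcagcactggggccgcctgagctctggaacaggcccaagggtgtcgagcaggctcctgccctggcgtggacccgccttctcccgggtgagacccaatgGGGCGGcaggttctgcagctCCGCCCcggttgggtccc
Sucla2, gene ID 20916, chr14:73552536-73552785, plus strand: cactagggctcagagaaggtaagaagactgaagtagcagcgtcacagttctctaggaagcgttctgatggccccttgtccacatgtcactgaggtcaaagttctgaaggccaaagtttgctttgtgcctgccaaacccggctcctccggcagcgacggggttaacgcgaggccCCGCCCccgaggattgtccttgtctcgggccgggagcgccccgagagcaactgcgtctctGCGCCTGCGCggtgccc
Pdha1, gene ID 18597, chrX:160138431-160138680, minus strand: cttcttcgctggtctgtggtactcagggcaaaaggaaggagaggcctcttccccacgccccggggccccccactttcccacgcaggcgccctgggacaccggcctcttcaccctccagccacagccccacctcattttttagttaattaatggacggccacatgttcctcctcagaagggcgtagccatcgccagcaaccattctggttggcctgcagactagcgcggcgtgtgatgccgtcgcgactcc
Fh1, gene ID 14194, chr1:175625636-175625885, minus strand: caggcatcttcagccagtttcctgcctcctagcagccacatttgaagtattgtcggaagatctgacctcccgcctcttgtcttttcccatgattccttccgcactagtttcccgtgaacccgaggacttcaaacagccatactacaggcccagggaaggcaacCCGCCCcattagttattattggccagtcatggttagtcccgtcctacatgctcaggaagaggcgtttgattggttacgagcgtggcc
In the Idh2 promoter the GC boxes began at -38 and -18, counted from the start as 0. The Sucla2 promoter held a GC box at -77 and the NRF1 sequence at -17, whereas the GC box of Fh1 began at -87 and Pdha1 had no match to either.

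Motifs were searched on both strands of windows of 300 bases, from 250 before to 50 after the start. RefSeq gave such windows for 8 of the 9 genes, and Ogdh had several. A gene was counted if any of its windows held the motif. GGGCGG was found for 7 of the 8, and 38.2% of 27025 mouse genes with a window had it. It was also found for 29 of 38 other genes of the wider pathway, so it was not particular to the 9. CCAAT, the sequence bound by NF-Y, was found for Cs, Idh2, Ogdh and Fh1, 4 of the 8, against 41.1% of all genes. The NRF1 sequence was found for Sucla2 alone, against 5.19% of all genes. TATAAA was present in 0 of the 8, in 1 of the 38 other pathway genes and in 15.7% of all genes. Neither TNAAGGTCA, recognised by estrogen-related receptors (1.43% of all genes), nor CCGGAAGT, recognised by GABPA (4.31%), was found in any of the 8. The windows of the 7 genes with a single start had a GC content between 54.3% (Fh1) and 68.3% (Idh2), where the median of all windows was 52.7%. These matches describe letters in a window and no binding was measured.

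The levels of the 9 transcripts spanned from about 12 to 163 FPKM. Mdh2, the malate dehydrogenase that regenerates oxaloacetate, was the highest with a mean of 162.9 FPKM over the 12 mice. It was followed by Fh1, fumarate hydratase, with 111.1 FPKM and by Idh2, the NADP-dependent mitochondrial isocitrate dehydrogenase, with 67.9 FPKM. Dlat, the E2 acetyltransferase of the pyruvate dehydrogenase complex, was the lowest with 12.02 FPKM. The levels of Mdh2, Fh1, Idh2 and Sucla2 held this order in 12 of 12 mice, with folds between neighbours of 1.47, 1.63 and 1.30. The step from Pdha1 down to Idh3a was 3.10-fold and was seen in 12 of 12 mice. Exact two-sided sign-flip permutation tests of the ratios within the 12 mice, adjusted over 8 neighbouring pairs, gave p = 0.00098 for each of these 4 steps. Cs lay above Ogdh in 11 of 12 mice (1.12-fold, adjusted p = 0.00326) and Ogdh above Pdha1 in 11 of 12 mice (1.10-fold, adjusted p = 0.00312) by the same exact test. For 2 of the 8 neighbouring pairs the order did not pass: Sucla2 over Cs (1.05-fold, 9 of 12 mice, exact test adjusted p = 0.0513) and Idh3a over Dlat (1.08-fold, 8 of 12 mice, exact test adjusted p = 0.136). The lengths the authors divided by are not known, so levels of different genes are comparable only as far as those lengths are right.

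The plot of FPKM by mouse shows how narrow each transcript was over the animals. The highest mouse exceeded the lowest by 1.20-fold for Ogdh and by 1.48-fold for Pdha1, and the other 7 genes lay between these values. Exe 2 had the highest level of 6 of the 9 genes, namely Idh2, Idh3a, Ogdh, Sucla2, Mdh2 and Pdha1. The summed FPKM of the 9 genes ranged from 513.4 in Con 3 to 617.4 in Exe 2.

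**Figure D1:**
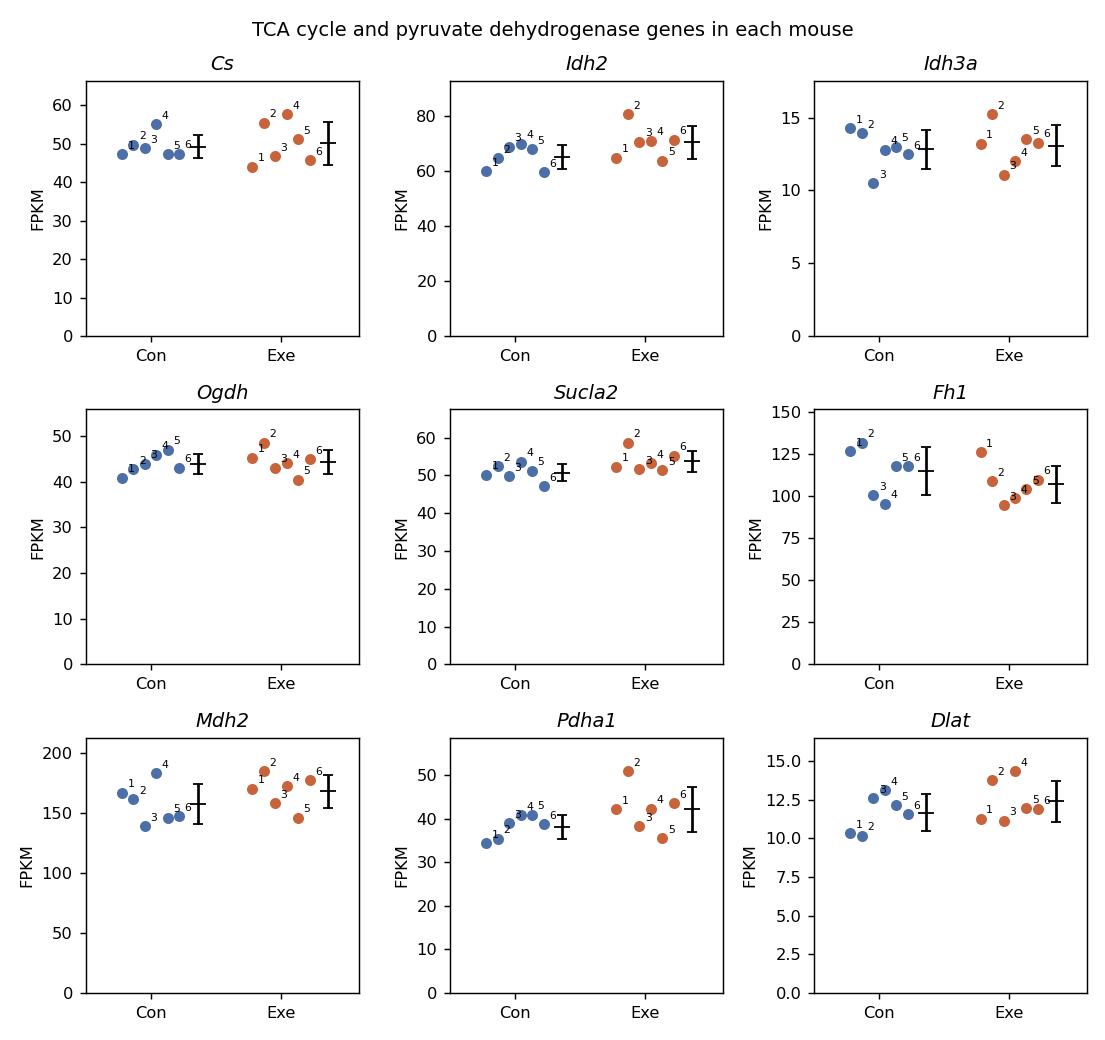
FPKM of each of the 9 genes in each mouse (points, 6 Con and 6 Exe), with the group mean and SD. For each gene the Con and Exe points overlap, and Exe 2 is the highest mouse for 6 of them.

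Between Con and Exe mice, 0 of the 9 genes passed an adjusted p of 0.05 in limma, and 0 of 9 passed an unadjusted p of 0.05. Over all 10241 genes tested, 0 genes (0%) passed the adjusted threshold, and the smallest adjusted p was 0.519. This count holds for the limma fit of FPKM. The paper, which used DESeq and a fold-change cutoff, did report differentially expressed genes between the groups, Cyp4a14 among them. At an unadjusted p of 0.05 in limma, 437 genes (4.27%) were higher and 199 (1.94%) were lower in Exe. Of these 636 genes 68.7% were higher in Exe, and the share was 56.4% after quantile normalization, 88.1% when every mouse was scaled to the same sum and 52.6% with median-ratio size factors. Among the 9 genes, 8 estimates were above 0 and 1 below, with a median log2 fold change (Exe over Con, on log2(FPKM + 1)) of 0.08, beside 0.02 and 57.5% above 0 over all genes tested. After quantile normalization 6 of the 9 were above 0. The median of the 9 was 0.05 without Exe 4 and 0.04 with the mean log2 level of acute-phase transcripts as a covariate. It was 0.04 after quantile normalization and 0.12 when every mouse was scaled to the same sum.

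Pdha1 and Dlat, the subunits of the pyruvate dehydrogenase complex among the 9 genes, had slightly higher means in Exe, within the spread of the mice. Pdha1, the E1 alpha subunit that carries the regulatory phosphorylation sites, ranged from 34.34 to 40.92 FPKM in Con, with a median of 38.9, and from 35.49 to 50.89 FPKM in Exe, with a median of 42.2. In 4 of 6 Exe mice it was above every Con mouse, while Exe 3 and Exe 5 lay inside the Con range. The means were 38.2 ± 2.75 FPKM in Con and 42.1 ± 5.25 FPKM in Exe (SD, n = 6 each), and the log2 fold change was 0.13 (SE 0.079, limma adjusted p = 0.871). The 95% interval of this change ran from -2.66% to 23.3% on the FPKM + 1 scale, which was the highest upper bound of the 9 genes. Without Exe 5, the mouse with the highest acute-phase FPKM sum, Pdha1 had a log2 fold change of 0.18 and an unadjusted p of 0.0326 in limma (adjusted p = 0.541). Without Exe 2, the highest mouse, it was 0.08 (limma adjusted p = 0.999), and with the acute-phase mean as a covariate 0.08 (limma adjusted p = 0.930). Dlat ranged from 10.17 to 13.11 FPKM in Con (median 11.9) and from 11.13 to 14.34 FPKM in Exe (median 11.9). The ranges overlapped for 4 of 6 Exe mice, and the log2 fold change of Dlat was 0.08 (SE 0.079, limma adjusted p = 0.931).

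Cs, citrate synthase, joins acetyl-CoA to oxaloacetate and is widely used as a marker of mitochondrial content. It ranged from 47.26 to 55.11 FPKM in Con (median 48.2) and from 44.10 to 57.71 FPKM in Exe (median 49.0). The Exe mice lay on both sides of the Con mice, with 2 above all of them and 3 below. The means of 49.3 ± 3.02 and 50.2 ± 5.55 FPKM (SD, n = 6 each) gave a log2 fold change of 0.02 (SE 0.072, limma adjusted p = 0.982), with a 95% interval from -8.90% to 12.8%.

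The dehydrogenases of the oxidative steps did not differ beyond the spread either. Idh2 makes NADPH as well as 2-oxoglutarate. It ranged from 59.75 to 70.06 FPKM in Con (median 66.4) and from 63.81 to 80.80 FPKM in Exe (median 71.0), and 4 of 6 Exe mice were above every Con mouse. Its means were 65.3 ± 4.49 and 70.5 ± 6.06 FPKM (SD, n = 6 each), a log2 fold change of 0.11 (SE 0.065, limma adjusted p = 0.872) with an interval from -2.21% to 18.9%.

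Idh3a encodes the catalytic subunit of the NAD-dependent isocitrate dehydrogenase of the cycle. Its range was 10.48 to 14.26 FPKM in Con (median 12.9) and 11.09 to 15.23 FPKM in Exe (median 13.3), so only Exe 2 exceeded all Con mice. The log2 fold change of Idh3a was 0.02 (SE 0.081, limma adjusted p = 0.980). Ogdh, the E1 subunit of the 2-oxoglutarate dehydrogenase complex, ranged from 40.90 to 46.97 FPKM in Con (median 43.5) and from 40.46 to 48.51 FPKM in Exe (median 44.5), with 1 Exe mouse above and 1 below all Con mice. Its log2 fold change of 0.02 (SE 0.053, limma adjusted p = 0.980) had an interval from -6.62% to 9.34%. The sign of the Ogdh estimate turned negative after quantile normalization and with median-ratio size factors, and that of Cs after quantile normalization.

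Sucla2, the ATP-forming beta subunit of succinyl-CoA synthetase, had the smallest spread within groups of the 9 genes. Its residual SD of 0.0677 on the log2 scale was at the 2.96th percentile of all genes tested, and that of Ogdh (0.0779) at the 6.39th, where the median gene had 0.14. Sucla2 ranged from 47.19 to 53.62 FPKM in Con (median 50.7) and from 51.38 to 58.65 FPKM in Exe (median 52.8). The Exe values lay in the upper part of the Con range or above it, and 2 of 6 exceeded every Con mouse. Its means were 50.8 ± 2.26 and 53.8 ± 2.77 FPKM (SD, n = 6 each), with a log2 fold change of 0.08 (SE 0.049, limma adjusted p = 0.876) and an interval from -1.73% to 13.8%. The exact two-sided permutation test over all divisions of the mice gave Sucla2 p = 0.0628 unadjusted, the smallest of the 9 genes, where the smallest p this design allows is 0.00216.

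Fh1, which hydrates fumarate to malate, was the one gene with a lower mean in Exe. It ranged from 95.44 to 131.77 FPKM in Con (median 117.8) and from 94.65 to 126.19 FPKM in Exe (median 106.6). No Exe mouse was above all Con mice, and only Exe 3 was below them. The means were 115.1 ± 14.3 and 107.1 ± 11.1 FPKM (SD, n = 6 each), a log2 fold change of -0.10 (SE 0.089, limma adjusted p = 0.931) with an interval from -18.3% to 6.65%. Mdh2, the next enzyme, ranged from 139.09 to 183.62 FPKM in Con (median 154.6) and from 146.24 to 185.05 FPKM in Exe (median 171.4). Only Exe 2 was above every Con mouse, and the log2 fold change of Mdh2 was 0.10 (SE 0.077, limma adjusted p = 0.922).

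**Figure D2:**
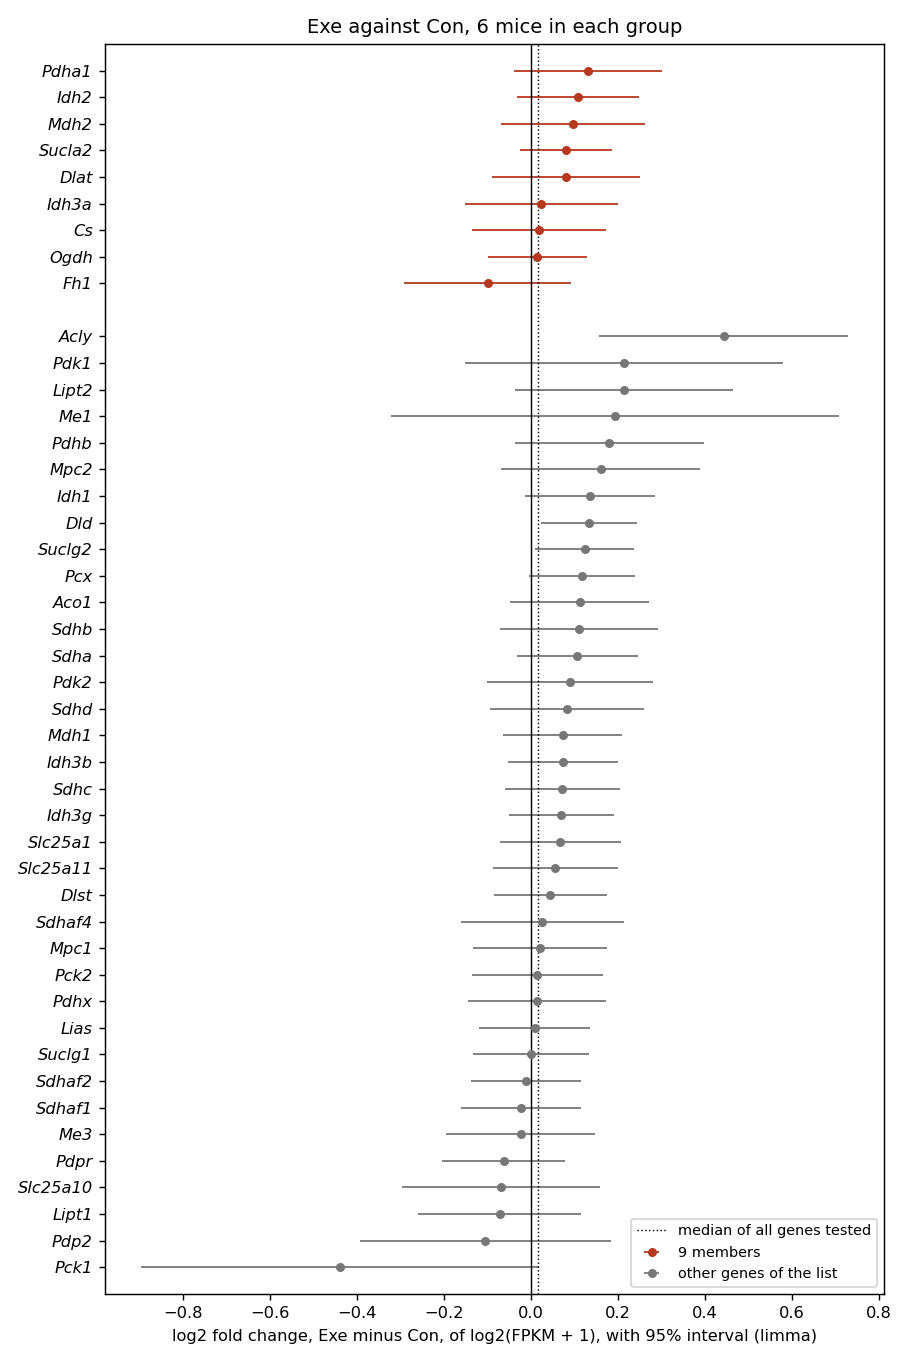
Log2 fold change of Exe over Con on log2(FPKM + 1) with its 95% interval from limma, for the 9 genes (red) and other pathway genes tested (grey), with the median of all genes tested as a dotted line. The interval of every one of the 9 genes includes 0, from Fh1 at -0.10 to Pdha1 at 0.13.

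Of the wider pathway, 42 other genes were in the files and 37 passed the filter and were tested in limma. In limma 0 of the 37 passed the adjusted threshold and 3 passed an unadjusted p of 0.05, all 3 higher in Exe, beside the 4.27% of all genes that were higher at that threshold. Estimates were above 0 for 29 and below 0 for 8 of the 37, with a median log2 fold change of 0.07. Dld, the E3 dihydrolipoamide dehydrogenase shared by the pyruvate and 2-oxoglutarate dehydrogenase complexes, had means of 50.2 ± 2.06 FPKM in Con and 55.2 ± 3.30 FPKM in Exe (SD, n = 6 each). In 5 of 6 Exe mice Dld was above every Con mouse (log2 fold change 0.13, SE 0.051, limma adjusted p = 0.793). Suclg2, the GTP-forming beta subunit that takes the place of Sucla2 in succinyl-CoA synthetase, had means of 100.7 ± 3.42 and 109.96 ± 7.32 FPKM, also with 5 of 6 Exe mice above all Con mice (log2 fold change 0.12, SE 0.053, limma adjusted p = 0.798). Which genes passed the unadjusted threshold, and in which direction, depended on the scaling. After quantile normalization 3 of the 37 passed it in limma, of which 2, Dld and Acly, were higher in Exe. Suclg2, with a log2 fold change of 0.07, was then not among them. Pck1, described below, took its place and was lower in Exe (log2 fold change -0.48).

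Acly, which splits exported citrate to acetyl-CoA in the cytosol for lipid synthesis, had the highest log2 fold change of the list. Its level was 55.1 ± 4.70 FPKM in Con and 77.0 ± 21.4 FPKM in Exe (SD, n = 6 each), and all 6 Exe mice were above all 6 Con mice. The groups nearly touched, with 59.81 FPKM in Exe 5 and 59.74 FPKM in Con 6. The log2 fold change of Acly was 0.44 (SE 0.133, limma adjusted p = 0.789), and the exact two-sided permutation test gave p = 0.00216 unadjusted, the smallest this design allows. Exe 2 had 119.12 FPKM of Acly, and without that mouse the log2 fold change was 0.31. Pck1, the cytosolic phosphoenolpyruvate carboxykinase of gluconeogenesis, had the lowest log2 fold change, -0.44 (limma adjusted p = 0.809), with means of 1080 ± 318 and 785 ± 192 FPKM. Next to these 2 genes stood Pdk1 and Lipt2, each at 0.21 (limma adjusted p = 0.922 and 0.849), and at the low end Pdp2 at -0.10 (0.947) and Lipt1 at -0.07 (0.945).

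The regulators of the pyruvate dehydrogenase complex were low or not different. Pdk2, the main kinase by level, had 47.2 ± 2.93 FPKM in Con and 50.7 ± 7.37 FPKM in Exe (SD, n = 6 each; limma adjusted p = 0.931). Pdk4, the kinase induced by fasting and fatty acids, was below the filter with means of 0.95 ± 0.60 and 1.09 ± 0.80 FPKM. Pdk3 (0.18 and 0.24 FPKM) and the phosphatase Pdp1 (0.23 and 0.27 FPKM) were lower still, and none of these was in the limma fit. Exact two-sided permutation tests gave unadjusted p = 0.721 for Pdk4, 0.318 for Pdk3 and 0.565 for Pdp1. Pcx, pyruvate carboxylase, which feeds oxaloacetate into the cycle, had a log2 fold change of 0.12 (limma adjusted p = 0.811), and the mitochondrial pyruvate carriers Mpc1 and Mpc2 had 0.02 and 0.16. The 4 subunits of succinate dehydrogenase, Sdha to Sdhd, had log2 fold changes between 0.07 and 0.11 (limma adjusted p from 0.873 to 0.931).

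Ratios within a mouse do not move with the scaling of that mouse, and 8 pairs of partner or neighbouring enzymes were compared in this way. By exact two-sided permutation tests 0 of the 8 ratios differed between the groups at an adjusted or an unadjusted p of 0.05. The ratio of Pdha1 to Pdhb, the 2 subunits of E1, was 0.491 ± 0.027 in Con and 0.477 ± 0.046 in Exe (SD, n = 6 each; exact permutation test adjusted p = 0.675). Idh2 exceeded Idh3a by 5.16 ± 0.82-fold in Con and 5.44 ± 0.63-fold in Exe. The ratio of Fh1 to Mdh2 had the largest difference of the 8 pairs, 0.737 ± 0.112 in Con and 0.638 ± 0.070 in Exe. Its log2 difference was -0.20 (SE 0.119), with exact permutation p = 0.141 unadjusted and 0.675 adjusted over the 8 pairs. Without Con 4, which had the lowest Fh1 to Mdh2 ratio and so lay against the group difference, the log2 difference was -0.30. The exact permutation p was then 0.0108 unadjusted and 0.0866 adjusted. Leaving out any other single mouse gave log2 differences from -0.165 (without Con 2) to -0.242 (without Exe 1). The exact permutation p of those runs was between 0.0823 and 0.219 unadjusted. The ratios of Dlat to Pdha1, Sucla2 to Suclg2, Ogdh to Dlst and Mdh2 to Mdh1 had log2 differences between -0.05 and 0.02.

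Over the 12 mice several of the transcripts varied together. The 36 pairs of genes had a median Pearson's r of 0.44 on log2(FPKM + 1), with 28 above 0, beside a median of 0.05 over the 52433920 pairs of all genes tested. By permutation tests over the 12 mice with 100000 resamples, adjusted over the 36 pairs, 6 pairs passed 0.05. After quantile normalization the median fell to 0.15 and 0 of the 36 pairs passed, and after the group means were removed the median was 0.40. The closest pair was Ogdh and Pdha1, the E1 subunits of the related 2-oxoglutarate and pyruvate dehydrogenase complexes (r = 0.88, Spearman's rho = 0.85, permutation test adjusted p = 0.00612). Without the 2 mice farthest from the median their r was 0.80, within Con it was 0.91, within Exe 0.98 and after quantile normalization 0.73.

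Idh2 varied with Sucla2 (r = 0.84), with Pdha1 (r = 0.81) and with Ogdh (r = 0.73), and Sucla2 with Mdh2 (r = 0.77), with adjusted p between 0.0177 and 0.0493 by the same permutation test. Cs varied with Dlat (r = 0.73, permutation test adjusted p = 0.0493), with r of at least 0.60 when any 1 mouse was left out. Without the 2 farthest mice its r was 0.41, the lowest of the pairs that passed, so it rested on few animals. In the same way r fell to 0.54 for Idh2 with Sucla2 and to 0.62 for Idh2 with Ogdh. It was 0.75 for Idh2 with Pdha1 and for Sucla2 with Mdh2. Fh1 stood apart: its r was -0.65 with Dlat, -0.53 with Idh2 and -0.49 with Cs, and positive only with Idh3a (0.57), with none past the adjusted threshold. With Dlat it was -0.93 within Con and -0.24 within Exe.

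**Figure D3:**
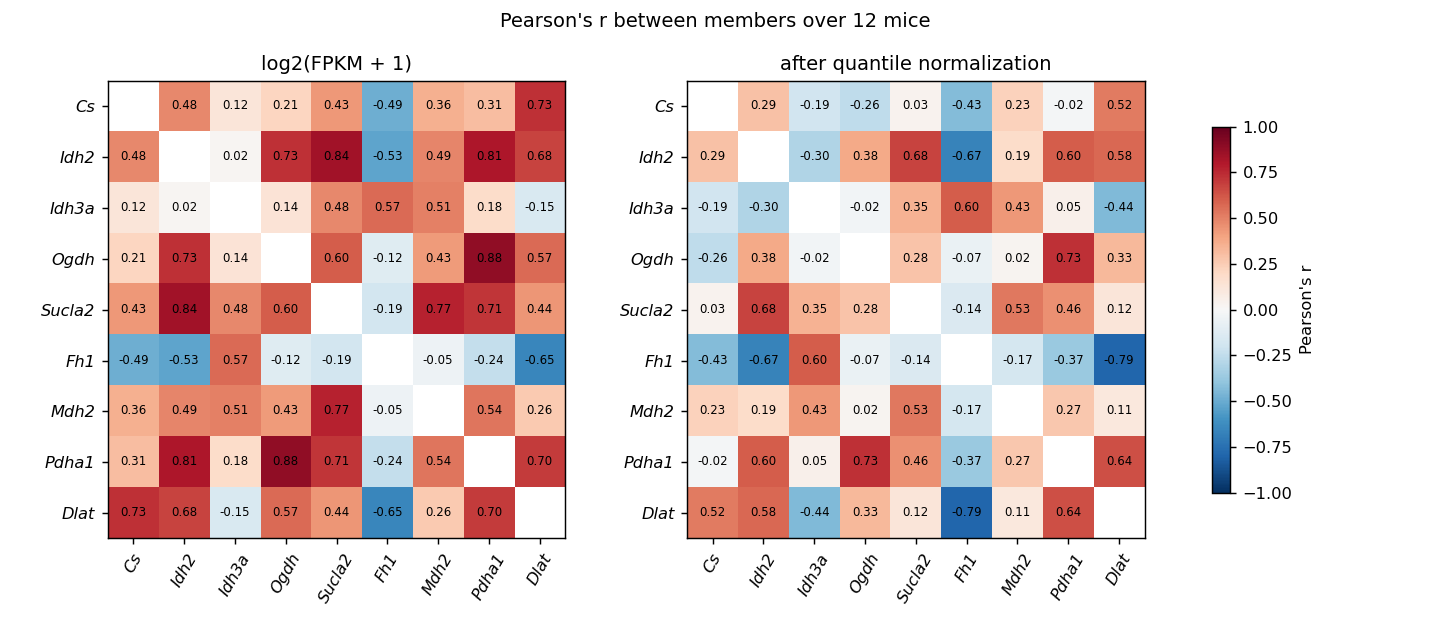
Pearson's r over 12 mice for each pair of the 9 genes, on log2(FPKM + 1) at left and after quantile normalization at right, with red for positive and blue for negative values. Ogdh with Pdha1 is the highest at left (0.88), Fh1 is negative with all but Idh3a, and most values at right are closer to 0 (median 0.15 instead of 0.44).

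Among the 3 genes whose values over the 12 mice were most like the mean standardized profile of the 9 were Atp5d, a subunit of ATP synthase (r = 0.92), and Spp2 (r = 0.91). Among the 9 genes themselves, r with this profile was highest for Sucla2 (0.90), and Fh1 had -0.12. The profile was highest in Exe 2 (1.54 standard units) and lowest in Con 6 (-0.62).

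Each gene was also set against 3 other measures over the 12 mice: the mean log2 level of 10 acute-phase transcripts, which hepatocytes make in inflammation, Cyp4a14, a target of the fatty acid receptor PPARA, and Pdk4. Of these 27 relations 8 passed an adjusted p of 0.05 by permutation test, and 4 did after quantile normalization. The acute-phase genes took from 1.29% of the FPKM sum in Con 4 to 6.31% in Exe 5, with 5.88% in Con 1. Ogdh was lower in mice with more acute-phase RNA (r = -0.87, rho = -0.84, permutation test adjusted p = 0.00396), with r = -0.76 without Con 1 and Exe 5, -0.95 within Con, -0.82 within Exe and -0.72 after quantile normalization. Pdha1 had r = -0.79 (permutation test adjusted p = 0.0102), with -0.66 without the same 2 mice, -0.85 within Con, -0.82 within Exe and -0.75 after quantile normalization. For Idh2 (r = -0.68) and Dlat (r = -0.69) the permutation test adjusted p was 0.0479, and neither passed after quantile normalization. Idh3a (-0.03) and Fh1 (0.32) showed no relation past the threshold. FPKM are shares of a total, so RNA that takes more of a library leaves less for the rest, and the part of this in the relations was not tested.

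Cyp4a14 ranged from 3.54 to 38.81 FPKM in Con and from 29.31 to 289.52 FPKM in Exe. The groups therefore differ in this measure, and values within each group are given beside the pooled ones. Idh2 rose with Cyp4a14 over the mice (r = 0.87, rho = 0.86, permutation test adjusted p = 0.00396), with r = 0.79 within Con, 0.94 within Exe, 0.68 without Exe 2 and Con 1 and 0.82 after quantile normalization. Pdha1 had r = 0.87 (rho = 0.81, permutation test adjusted p = 0.00396), with 0.86 within Con, 0.94 within Exe, 0.66 without the same mice and 0.83 after quantile normalization. Sucla2 (r = 0.79, permutation test adjusted p = 0.0209) had 0.34 within Con and 0.97 within Exe. Ogdh (r = 0.70, permutation test adjusted p = 0.0479) had 0.96 within Con, 0.88 within Exe and 0.31 without the 2 farthest mice. After quantile normalization neither passed, with r = 0.72 for Sucla2 and 0.46 for Ogdh (permutation test adjusted p = 0.0557 and 0.306). Con 1 (3.54 FPKM) and Exe 5 (29.31 FPKM) had the lowest Cyp4a14 and the highest acute-phase mean of their groups. The relation between these 2 measures was not tested. With Pdk4, which was at most 2.68 FPKM, 0 of the 9 genes had a relation past the threshold.

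**Figure D4:**
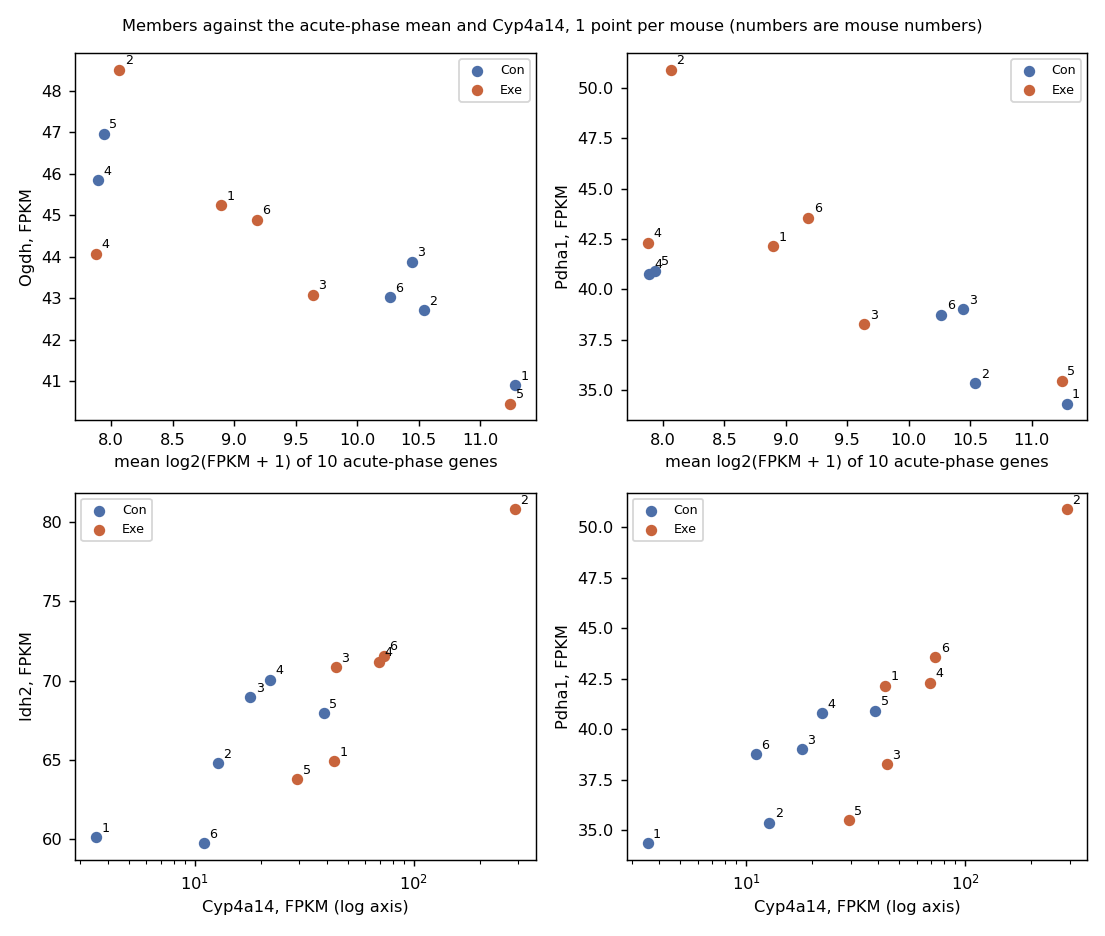
FPKM of Ogdh and Pdha1 against the mean log2(FPKM + 1) of 10 acute-phase genes (upper panels), and FPKM of Idh2 and Pdha1 against the FPKM of Cyp4a14 on a log axis (lower panels), with 1 point per mouse (6 Con in blue, 6 Exe in orange). Ogdh falls with the acute-phase mean (r = -0.87), and Idh2 rises with Cyp4a14 (r = 0.87), with Exe 2 at the upper end.

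The samples carried the RNA of liver. The 10 hepatocyte markers were all present, with sums from 61477 to 79772 FPKM in Con and from 71167 to 88000 FPKM in Exe. Muscle is rich in these enzymes, and 7 of 8 skeletal muscle markers were in the files with sums of 0.29 to 1.26 FPKM in Con and 0.37 to 1.61 FPKM in Exe, Ckm and Acta1 being at 0.05 FPKM or less in every mouse. Heart muscle markers summed to at most 1.02 FPKM in 11 mice and to 3.29 FPKM in Exe 2. Red blood cell markers summed to 235.1 to 903.02 FPKM in Con and 400.3 to 1290 FPKM in Exe, and Kupffer cell markers to 129.9 to 242.6 and 90.6 to 228.7 FPKM.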

How the data were processed

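Total RNA of 12 mouse livers (6 Con, 6 Exe) was sequenced by the authors on the DNBseq platform with paired reads. They removed adapter, low-quality and short reads and aligned the rest with HISAT to GRCm39; the submitters' processing notes also list Bowtie2 and mm10. The deposited values are FPKM per gene and mouse to 2 decimals. The tool that computed them and the read totals are not given in the sources used here, so precision is known only from how the 6 mice of a group differed. FPKM are not counts, so the count-based test of the study was not used.

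Genes that reached 1 FPKM in 6 or more of the 12 mice were fitted as log2(FPKM + 1) in R 4.3.3 with limma 3.58.1 (eBayes with a trend, group as the only term, Benjamini-Hochberg adjustment over all 10241 genes), after the fit was tested on simulated data. The pseudocount of 1 understates changes of low genes. Exact two-sided permutation tests used all 924 divisions of the mice, and correlations 100000 permutations (Python 3.11.15, numpy 2.4.6, pandas 2.3.3, scipy 1.17.1; plots with matplotlib 3.10.9). The alternatives were other scalings, filters, pseudocounts and moderation, a replicate block and leaving out each mouse.

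Members and lists were chosen with earlier results of these data known. Named genes were the 9 members and, of the 42 other pathway genes, those at an unadjusted p of 0.05, the 3 highest and 3 lowest fold changes, the ratio partners, and the kinases, phosphatases and pyruvate carriers, with the 3 genes most like the members. Some of these genes and their ratios are not reported here. Sdha to Sdhd were named after their values were seen. Symbols and promoters came from RefSeq tables of GRCm38.p6, a build other than that of the files, which were matched by gene ID or symbol (16710 of 16821 IDs).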

Additional observations from a re-analysis of the deposited data

Results flagged for a closer look

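Within a group of 6 mice, the highest or lowest value was called apart from the others where its gap to the nearest mouse, divided by the range of the group, was above Dixon's critical value of 0.625. Of 150 sets of 6 values checked, 13 were called, where chance calls about 1 in 20 (7.5 sets), and of the 18 sets of the 9 genes 1 was called. That set was Cs in Con, where Con 4 had 55.11 FPKM.

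Among the other pathway genes, Con 4 was apart for Suclg1 (126.91 FPKM) and Ogdhl (0.1 FPKM), Exe 5 for Sdhc (142.24 FPKM), Exe 2 for Acly (119.12 FPKM) and Exe 6 for Pdk4 (2.68 FPKM). Of the ratios, Ogdh to Dlst was 0.7942 in Con 5, and Fh1 to Mdh2 was 0.5198 in Con 4.

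Of the summed marker lists, the acute-phase list was 48284.91 FPKM and the pancreatic acinar list 16.61 FPKM in Exe 5. The heart muscle list was 3.29 FPKM in Exe 2, the stellate cell list 47.6 FPKM in Con 5 and the cholangiocyte list 26.2 FPKM in Con 6. The part of these values in the comparisons was not tested, other than by leaving out each mouse.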

How the results depend on the processing

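Of 533 values recomputed under an alternative, 14 changed sign and 13, all counts, moved by over 1.5 times or to or from 0. The estimate of Cs was -0.0065 after quantile normalization and -0.0016 with the acute-phase mean as a covariate, an alternative chosen after seeing the data. That of Ogdh was -0.0124 and -0.0142 in these settings, and -0.0038 with median-ratio size factors. Leaving out each mouse in turn gave -0.0217 to 0.0544 for Cs, -0.0285 to 0.0663 for Idh3a, -0.0105 to 0.0407 for Ogdh, -0.0539 to 0.0248 for the log2 ratio of Ogdh to Dlst and -0.0076 to 0.0617 for that of Mdh2 to Mdh1. The median of the 9 genes ranged from 0.0453 (without Exe 4) to 0.0967 (without Con 4) and was 0.0398 with the covariate. It was 0.0435 after quantile normalization and 0.1153 when every mouse was scaled to the same sum. Leaving out 1 mouse also moved other estimates of the 9 genes by over 1.5 times without changing their sign. At their smallest in these fits were Pdha1 (0.0765 without Exe 2), Idh2 (0.069 without Exe 2), Dlat (0.0397 without Exe 4), Fh1 (-0.0585 without Con 2) and Mdh2 (0.0628 without Con 3). Log2 ratios moved as much: Idh2 to Idh3a was 0.0292 without Con 1 and Dlat to Pdha1 -0.0202 without Exe 1. Pdha1 to Pdhb was -0.0213 without Exe 2 and Sucla2 to Suclg2 -0.0146 without Exe 5. After quantile normalization Mdh2 was 0.0435, Sucla2 0.0525 and Suclg2 0.0727.

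With no filter on low values, 1 gene passed the adjusted threshold. Leaving out 1 mouse gave 418 (without Exe 2) to 905 (without Exe 5) genes at an unadjusted p of 0.05 instead of 636, 0 to 1 of the 9 genes (Pdha1, without Exe 5), and 2 to 7 of the other pathway genes instead of 3 (7 without Exe 5; 5 without Con 3, Exe 1 or Exe 3). Of all 36 pairs, 6 passed over the 12 mice, 0 after quantile normalization, 0 within Con and 1 within Exe (Sucla2 with Pdha1, which is not among the 6). Of the 27 relations with another measure, 8, 4, 0 and 3 did. Within 6 mice the exact permutation test cannot give p below 0.00139, the value of Sucla2 with Pdha1 within Exe. Adjusted over 36 pairs this only just reaches 0.05, so the counts within a group cannot show whether a relation was lost. With the replicate block 0 genes passed, 567 did at an unadjusted p, and 0 of the 9 and 2 of the other pathway genes did. Mice of the same number had correlations of their deviations from -0.48 to 0.16. The labels name no pairing, and whether mice of the same number shared any handling is unknown. The cause of the differences between settings was not tested. Depth in reads is unknown, which limits statements on low genes such as Pdk4.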

Other observations

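Other markers gave summed FPKM as follows, each over 6 Con and 6 Exe mice. Periportal hepatocyte markers were 2547 to 3214 in Con and 2157 to 3030 in Exe, and pericentral markers 5220 to 6533 and 4745 to 7230. Sinusoidal endothelial markers were 59.6 to 97.6 in Con and 70.4 to 84.6 in Exe, and stellate cell markers 47.6 to 93.3 and 49.1 to 93.3. Cholangiocyte markers were 2.26 to 26.2 and 2.64 to 9.09, and pancreatic acinar markers 0.6 to 1.14 and 0.8 to 16.6. Neutrophil markers were 11.2 to 32.6 and 8.59 to 51.1, T cell markers 1.38 to 2.55 and 1.48 to 3.72, and B cell markers 2.83 to 5.56 and 4.70 to 7.64. Adipocyte markers were 10.01 to 19.6 and 11.8 to 22.02, and most of this was Fabp4 (9.77 to 19.25 and 11.5 to 21.47). The other adipocyte markers were near 0 in every mouse, with at most 0.06 FPKM of Adipoq, 0.04 of Plin1 and 0.79 of Cidec. The part of these cells in the levels of the 9 genes was not tested.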
